A study of Mus musculus with 12 samples.

Results

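The Mediator complex was described here across its 33 genes, in erythroid cells with and without knockdown of the histone methyltransferase G9a. The genes were selected by symbol from the composition of the mammalian complex: 11 head genes, 9 middle genes, the scaffold gene Med14, 5 tail genes and 7 genes of the dissociable kinase module. All 33 had a probe set annotated to 1 gene, out of 18193 genes named in that way on the array, and 32 of them lay above the filter on dim signal, as did 9025 genes in all. The exception was Med12l. Each gene was represented by its probe set of highest mean, whatever the difference between the groups.

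RNA came from mouse erythroleukemia (MEL) cells, a leukemic red cell precursor line that matures in culture when given dimethyl sulfoxide (DMSO). The 6 Affymetrix arrays hold 3 samples of wild type cells and 3 of cells with G9a knockdown, and each group carries the numbers 1 to 3. According to the protocols of both groups, cells received 2% DMSO for 4 days, and 5 µg/ml of doxycycline (Dox) switched on the knockdown. Whether wild type cells were given Dox too, which construct was used, whether the knockdown line is a clone and whether replicates are separate cultures is not stated in the labels. The p-values therefore measure only how far these arrays vary, which may be technical in part. Levels are log2 values of the deposited GCRMA summary. A difference is knockdown minus wild type, with the replicate number as a block, and a gene was called at an adjusted p under 0.05 (limma, Benjamini-Hochberg over all 17028 probe sets tested).

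Mediator is a large coactivator that joins transcription factors bound at enhancers to RNA polymerase II at promoters. Its head and middle contact the polymerase, its tail receives activators, and Med14 runs through the complex as a backbone. The kinase module, made of cyclin C, the kinase CDK8 or its paralog CDK19, MED12 or MED12L, and MED13 or MED13L, binds reversibly and blocks the contact with the polymerase while bound. In red cell precursors MED1 is known as a partner of the erythroid factor GATA1. The placement of Med27 to Med30 in the head follows common usage, and some structural work assigns part of them to the tail.

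Cdk8 and Med13l held the lowest p-values in the complex in the blocked GCRMA fit. Med12l was the single undetected member, and Med12 is its detected paralog. The promoter sequences of these 4 kinase module genes are therefore shown first. They are the 250 bases before the annotated start, read 5′ to 3′ on the strand of the gene from RefSeq (GRCm38.p6), and all 4 lie on the plus strand. The windows are chr5:146231000-146231249 for Cdk8, chr5:118560469-118560718 for Med13l, chrX:101273841-101274090 for Med12 and chr3:59006728-59006977 for Med12l. Capitals mark the GC box letters GGGCGG on either strand and, in Med13l, the GATA letters AGATAA.

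Cdk8: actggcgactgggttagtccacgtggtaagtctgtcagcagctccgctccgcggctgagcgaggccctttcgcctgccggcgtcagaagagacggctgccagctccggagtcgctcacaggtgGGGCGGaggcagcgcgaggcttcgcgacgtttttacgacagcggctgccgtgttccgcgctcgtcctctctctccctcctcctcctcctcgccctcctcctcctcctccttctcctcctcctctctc

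Med13l: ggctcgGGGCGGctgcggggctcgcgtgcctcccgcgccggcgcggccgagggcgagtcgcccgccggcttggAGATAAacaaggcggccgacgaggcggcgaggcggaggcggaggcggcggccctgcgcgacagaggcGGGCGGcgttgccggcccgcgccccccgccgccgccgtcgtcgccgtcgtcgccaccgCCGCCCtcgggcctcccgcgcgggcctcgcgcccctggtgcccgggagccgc

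Med12: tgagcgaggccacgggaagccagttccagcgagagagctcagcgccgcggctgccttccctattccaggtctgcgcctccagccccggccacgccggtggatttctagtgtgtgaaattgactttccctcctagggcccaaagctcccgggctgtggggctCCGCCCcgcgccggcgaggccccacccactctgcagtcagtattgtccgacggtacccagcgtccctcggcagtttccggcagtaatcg

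Med12l: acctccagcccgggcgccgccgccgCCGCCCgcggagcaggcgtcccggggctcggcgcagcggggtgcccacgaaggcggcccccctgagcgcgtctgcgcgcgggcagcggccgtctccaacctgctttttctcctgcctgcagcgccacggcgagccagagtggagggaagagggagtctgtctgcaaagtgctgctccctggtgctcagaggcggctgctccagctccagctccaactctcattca

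Each of the 4 windows held the GC box letters, including that of Med12l, whose transcript was not detected above the filter. Over the full windows of 300 bases, which add 50 bases after the start, GC content was 66.7% for Cdk8, 84.7% for Med13l, 66.3% for Med12 and 69% for Med12l. Of the 33 genes, 28 had an entry, in 32 windows. Their median ratio of observed to expected CpG was 0.786, against 0.567 over windows of protein-coding genes and 0.384 over all 32851 windows. GGGCGG occurred in 19 of the 28 genes (62.5% of member windows, 46.2% of protein-coding and 35.7% of all windows, either strand). The ETS factor letters CCGGAAG occurred in 8 genes: Med4, Med6, Med10, Med14, Med15, Med17, Med18 and Med19. That is 28.1% of member windows, against 11.6% of protein-coding and 8.86% of all windows. The NRF1 letters GCGCATGC were in Med4, Med15 and Med17 (12.5% of member windows, 3.52% of protein-coding windows and 2.71% of all). AGATAA was in 4 genes, Med13l, Med16, Med25 and Med27 (12.5% of member windows, 9.65% of protein-coding windows and 11.2% of all). CCAAT was in 11 genes (37.5%, 38.2% and 37.4%), TATAAA in 3 (9.38%, 12.6% and 13.6%), and the YY1 letters AAGATGGCG in 0 (1.83% and 1.40% elsewhere). All motifs were read on both strands. These matches are letters in a window, and the difference in composition between member windows and the rest moves with them.

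G9a knockdown itself was visible on the arrays. Ehmt2, which encodes G9a, read 9.92, 10.03 and 10.23 on the wild type arrays and 6.67, 7.33 and 7.58 on the knockdown arrays (numbers 1, 2 and 3) at probe set 1460692_at. The groups stand well apart there, with a difference of −2.87 (95% interval −3.24 to −2.49, limma adjusted p = 0.0316). At 1426888_at Ehmt2 fell by 2.86 (limma adjusted p = 0.0278). Both differences kept their sign in MAS5 (−2.46 and −2.71) without passing the test there, and without the block the adjusted p in limma was 0.0719 for the first and 0.0216 for the second. These 2 probe sets, 0.0117% of those tested, were the whole set called in the fit. As a check of the labelled cell type, 10 of 11 erythroid genes with a probe set passed the filter. Levels of the 11 ran from 2.45 to 13.33 (Gata1), with a median of 10.24. Of those that passed, Hba-a2 and Slc4a1 were low, at 7.37 and 7.93 in wild type. All tested probe sets had a median level of 8.13. Markers of other lineages passed in 3 of 12 (myeloid), 1 of 11 (lymphoid), 2 of 6 (megakaryocyte), 0 of 8 (mast cell and basophil) and 2 of 10 (fibroblast and endothelial) genes. Summed on a linear scale, the megakaryocyte list ran from 3711 to 4610 in wild type and from 2123 to 3248 in the knockdown. In the same order, the myeloid list ran from 203 to 269 and from 249 to 319. The erythroid list ran from 33619 to 40517 and from 37721 to 43298, and the fibroblast and endothelial list from 186 to 272 and from 159 to 228. The largest difference of a tested marker was that of the myeloid gene Prtn3 (1.19, limma adjusted p = 0.21). Klf1 differed by 0.40 and Vim by −0.54 (limma adjusted p = 0.241 and 0.194). The megakaryocyte sum was mostly that of Itga2b, an integrin gene, which made up 78.8% to 94.1% of it. Itga2b read 11.65, 11.84 and 12.08 in wild type and 11.05, 11.47 and 10.93 in the knockdown (difference −0.71, limma adjusted p = 0.226). Pf4, the other detected gene of that list, read 8.83, 8.42 and 7.88 against 9.06, 8.58 and 7.13, higher in the knockdown in pairs 1 and 2 and lower in pair 3. The part of these markers in any Mediator value was not tested. In bulk RNA, fewer cells of a kind and less RNA per cell cannot be told apart.

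Of the 32 Mediator genes tested, 0 were called in either direction (limma adjusted p 0.404 to 0.978), beside 2 of all 17028 probe sets (0.0117%). At an unadjusted p under 0.05 the count of members was 0, where 13.7% of all probe sets reached it. Without the block the count at an unadjusted p under 0.05 was also 0, against 5.87% of all probe sets. That count moved with the settings. With no filter on dim probe sets it was 4 of 33 (Med17, Med30, Cdk8 and Cdk19), or 12.1%, beside 8.62% of all 45037 probe sets. That background includes the dim probe sets that the filter removes, while every member but Med12l passes it, so the shares are not alike. With the filter at log2 6 the count was 0 members, beside 15.9% of all probe sets. Leaving out arrays gave 0 to 3, with Med11, Med24 and Med27 without replicate 3 (9.38%, beside 13% of all probe sets), Med13l without replicate 2 (3.12%, beside 8.67%), and, with no block, Cdk8 and Med13l without knockdown 2 (6.25%, beside 4.5%) and Med31 without wild type 1 (3.12%, beside 6.78%). Differences ran from −0.28 (Med11) to 0.26 (Med13l), with 15 above 0 and 17 below. That is 46.9% above 0, beside 48.3% of all probe sets. The median difference of the members was −0.0094, and that of all probe sets −0.0083. In absolute size the median was 0.10 for the members and 0.13 for all probe sets.

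Intervals of the blocked GCRMA fit bound the differences for that fit and for the representative probe sets only. The 95% interval of the difference lay within 1.5-fold either way (±0.58 on the log2 scale) for 31 of 32 members, beside 75.1% of all probe sets. Med11 was the exception, with a lower bound of −0.69, or 0.62 of the wild type level. The highest upper bound was that of Med13l, 0.57 (1.48-fold). Other settings gave wider bounds. Without the block, intervals of Med6 (to 0.59), Med11 (to −0.76), Med27 (to −0.79) and Cdk19 (to −0.62) crossed 1.5-fold. In MAS5 with the block, those of Med6 (to 0.67) and Med24 (to −0.70) did. Among the other tested probe sets of members, bounds in the blocked GCRMA fit reached −1.07 (Med29) and 0.75 (Med1). Members had a median level of 9.15 and all tested probe sets one of 8.13, and the median half-width of the interval was 0.28 and 0.29. Single differences rest on few arrays. In 31 of 32 members, Med13l being the exception, leaving out some array or pair moved the difference by over 1.5 times or turned its sign. With only pairs left out, in the blocked fit, the count was 26. Single arrays were left out in fits without the block, and small differences pass such a ratio easily. The share over all probe sets was not computed, so these counts are not read as a trait of the members.

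**Figure D1:**
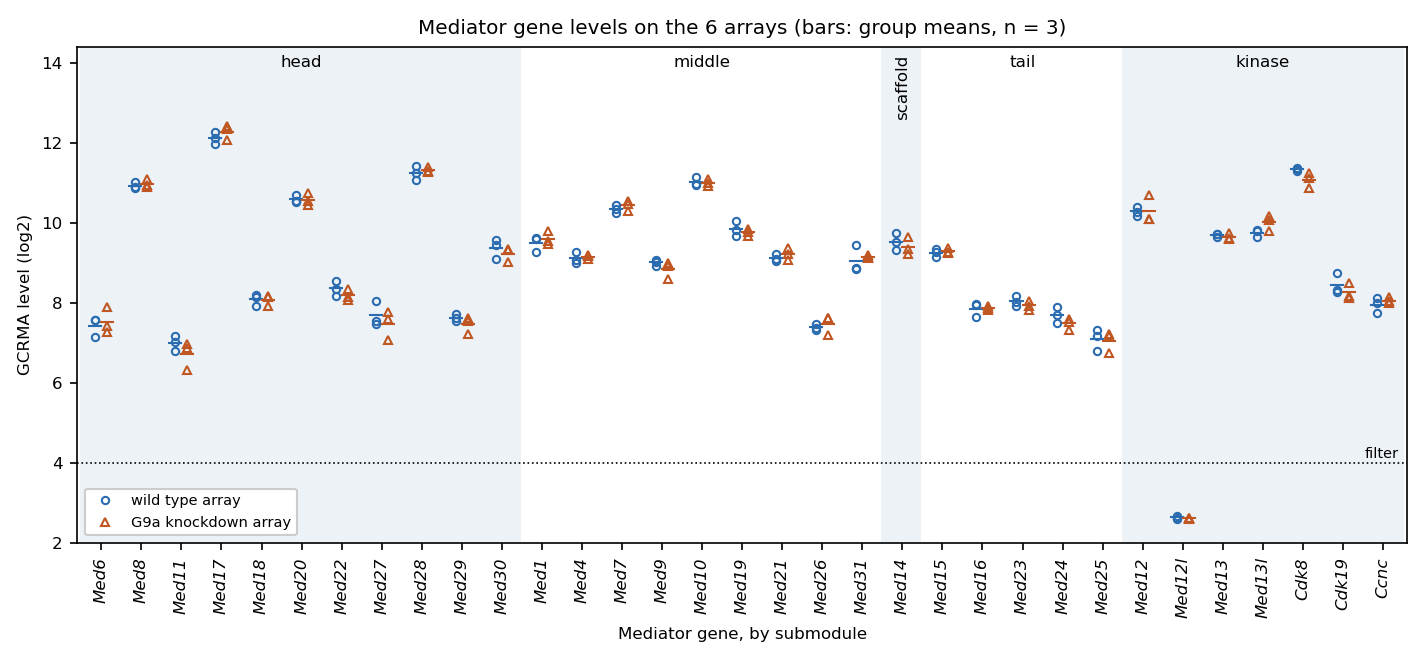
GCRMA log2 level (vertical axis) of the 33 Mediator genes (horizontal axis, by submodule) on each of the 3 wild type arrays (circles) and 3 G9a knockdown arrays (triangles), with group means as bars and the filter at log2 4 dotted. The symbols of both groups overlap for every gene above the filter except Cdk8, and Med12l lies below the filter at 2.62; probes differ in brightness per transcript, so heights of different genes do not rank their mRNA.

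**Figure D2:**
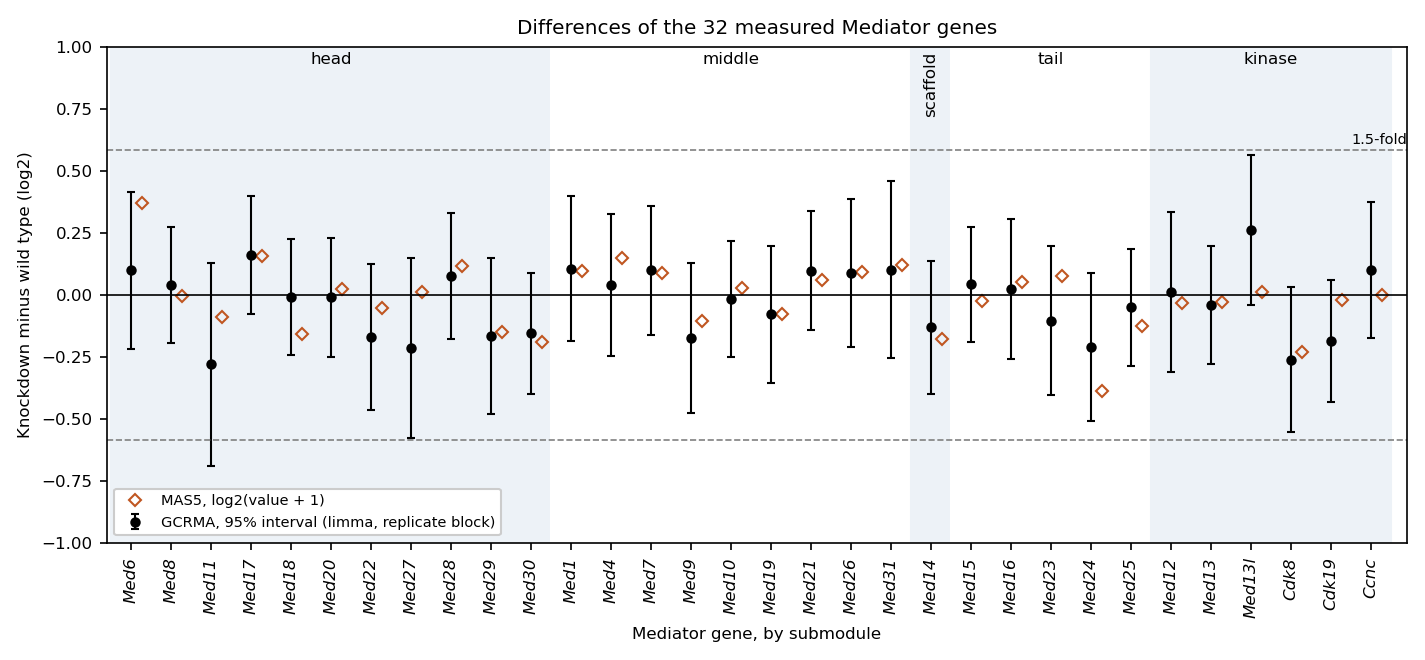
Knockdown minus wild type (log2, vertical axis) for the 32 tested Mediator genes, as GCRMA differences with 95% limma intervals from the fit with the replicate block (n = 3 arrays per group; black) and as MAS5 differences (diamonds). Every GCRMA interval includes 0, and only that of Med11 crosses a dashed line at 1.5-fold.

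Levels are given by submodule as description only, since different probe sets have different brightness per transcript. Head genes read from 6.86 (Med11) to 12.20 (Med17) on average over the 6 arrays. Middle genes lay between 7.43 (Med26) and 11.02 (Med10). Med14 stood at 9.47. Tail genes covered the range from 7.07 (Med25) to 9.28 (Med15), and the 6 detected kinase module genes 8.01 (Ccnc) to 11.21 (Cdk8). Across the 32 members the wild type and knockdown means correlated at 0.996, a description of the same probe sets read in both groups.

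The kinase module held both of the lowest p-values in the complex, in opposite directions. Cdk8, the kinase that gives the module its activity, read 11.36, 11.36 and 11.30 on wild type arrays 1, 2 and 3 and 10.87, 11.25 and 11.12 on the knockdown arrays. Every knockdown array was below every wild type array, the lowest being knockdown 1. By representative probe sets, Cdk8 was the only member whose groups did not overlap in this direction, beside 7.33% of all probe sets. By the same probe sets 0 members had the knockdown wholly higher, beside 5.04%. The dimmer Med28 probe set, 1448374_at, did have it wholly higher, with a difference of 0.23 (limma adjusted p = 0.475). The difference of Cdk8 was −0.26 (interval −0.55 to 0.03, limma adjusted p = 0.404). It was −0.15 without both replicate 1 arrays. In MAS5 it was −0.23, of like size. Cdk8 was 1 of the 2 members with an unadjusted p under 0.05 when the prior variance was fitted to the level and made robust (Med13l was the other), with an adjusted p of 0.302 there (6.25% of members, beside 14.9% of all probe sets).

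Cdk19, the paralog that can take the place of Cdk8, read 8.76, 8.32 and 8.27 in wild type and 8.50, 8.11 and 8.18 in the knockdown. Both replicate 1 arrays were high, and the knockdown was lower in each of the 3 pairs, although the groups overlap. The difference was −0.19 (interval −0.43 to 0.06, adjusted p = 0.463 in limma), −0.11 at the second tested probe set of Cdk19 and −0.022 in MAS5. With pair 1, 2 or 3 left out of the blocked fit it was −0.15, −0.17 and −0.24. In the fit without a block it was −0.032 without wild type 1. Each of the 2 kinase genes was therefore lower in all 3 pairs in GCRMA, and neither passed the test.

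Med13l, whose protein links the kinase module to the core, read 9.82, 9.79 and 9.65 in wild type and 10.19, 9.80 and 10.06 in the knockdown. Knockdown 2 sat within the wild type range and the other knockdown arrays above it. Its difference of 0.26 (interval −0.04 to 0.57, limma adjusted p = 0.415) was matched by 0.26 at its other tested probe set, and was 0.39 without both replicate 2 arrays. In MAS5 the representative probe set differed by only 0.013 and the other by 0.25.

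Its paralog Med13 gave different pictures at its tested probe sets. The brighter read 9.73, 9.72 and 9.65 in wild type and 9.63, 9.75 and 9.60 in the knockdown, and differed by −0.04 (interval −0.28 to 0.20). The dimmer, 1438725_at, read 7.97, 7.86 and 8.07 against 7.03, 7.58 and 7.97, a difference of −0.44 (interval −0.90 to 0.02, limma adjusted p = 0.377). Most of the latter came from knockdown 1, where the pair difference was −0.94, against −0.28 and −0.10 in the other pairs.

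Med12, which activates the kinase through cyclin C, read 10.19, 10.40 and 10.28 in wild type and 10.10, 10.70 and 10.10 in the knockdown. Only knockdown 2 was outside the wild type range by much, and the difference was 0.011 (interval −0.31 to 0.33). Med12l, the paralog of Med12, read 2.60, 2.63 and 2.67 in wild type and 2.62, 2.59 and 2.62 in the knockdown at its brightest probe set. All 3 of its probe sets lay below the array medians of 2.99 to 3.10, so no fold is given. Cyclin C, encoded by Ccnc, differed by 0.10 (interval −0.18 to 0.38), with 0.17 and 0.080 at its other tested probe sets and 1.9e-04 in MAS5.

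In the head, which holds the main contacts with RNA polymerase II, 4 of 11 differences were above 0 and the median was −0.011. Med17, the central head subunit, read 11.97, 12.12 and 12.28 in wild type and 12.07, 12.34 and 12.43 in the knockdown. The knockdown was higher in each pair, by 0.11, 0.22 and 0.15, while the 3 pairs themselves sat at different levels. The difference was 0.16 (interval −0.08 to 0.40, limma adjusted p = 0.499), and 0.16 in MAS5. Med11 had the largest difference of the members, −0.28 (interval −0.69 to 0.13), from 7.17, 7.01 and 6.81 in wild type and 6.97, 6.32 and 6.86 in the knockdown. It rests on knockdown 2, since without both replicate 2 arrays it was −0.074.

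Med27 showed the same dependence, with wild type at 8.06, 7.55 and 7.47 and the knockdown at 7.77, 7.06 and 7.61. Its difference was −0.22 (interval −0.58 to 0.15), −0.079 without both replicate 2 arrays and 0.0096 in MAS5. Med22 differed by −0.17, and by −0.056 without both replicate 1 arrays. Med29 differed by −0.17 (−0.50 at its dimmer tested probe set, where wild type 1 stood high), and by −0.046 without both replicate 2 arrays. Med30 differed by −0.15 and was lower in each pair, by 0.25, 0.12 and 0.09, with −0.19 in MAS5. It was −0.18 without both replicate 3 arrays, and −0.049 when only knockdown 3 was left out in the fit without a block. That fit keeps the wild type array of number 3, which was also low. Med6 differed by 0.10 at its brightest probe set and by 0.18 and 0.27 at the others. In the blocked GCRMA fit the dimmest, 1439737_x_at, was the only one of the 54 tested member probe sets with an unadjusted p under 0.05 (limma adjusted p = 0.36). It was singled out after its values were seen. In MAS5 its difference was much larger, at 1.25 (limma adjusted p = 0.338). The brightest Med6 probe set also reached an unadjusted p under 0.05 in MAS5, at 0.37 (adjusted p = 0.445). So did a dim probe set of Med1, 1421906_at, at 0.52 in MAS5 (adjusted p = 0.442) and 0.14 in GCRMA. Med28, Med8, Med18 and Med20 differed by 0.078 (0.23 at its other probe set), 0.04, −0.0083 and −0.011 (0.023 at its other probe set).

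The middle module, which with the head forms the core that receives the polymerase, had 6 of 9 differences above 0 and a median of 0.089. Med1, the subunit bound by GATA1 and nuclear receptors, read 9.28, 9.63 and 9.60 in wild type and 9.54, 9.80 and 9.47 in the knockdown. The pairs disagreed in sign, at 0.26, 0.18 and −0.12. Its difference was 0.11 (interval −0.19 to 0.40, limma adjusted p = 0.729), and of its other 5 tested probe sets 3 were below 0. Med9 read 9.07, 9.03 and 8.93 in wild type and 8.99, 8.60 and 8.92 in the knockdown. It was lower in each pair, with a difference of −0.17 (interval −0.48 to 0.13), and −0.19 at its other probe set, again lower in each pair. Most of the former came from knockdown 2, since without both replicate 2 arrays it was −0.049.

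Med31 read 9.44, 8.84 and 8.87 in wild type and 9.19, 9.15 and 9.11 in the knockdown. Wild type 1 was the highest of the 6 arrays, and the other wild type arrays the lowest. The difference was 0.10 (interval −0.26 to 0.46), and 0.30 when wild type 1 was left out in the fit without a block. Med7 and Med21, which form a hinge of the middle module, differed by 0.099 and 0.097, and Med26, which recruits elongation factors, by 0.089 (0.21 at its other probe set). Med4, Med10 and Med19 differed by 0.039, −0.016 and −0.079 (0.072 at the other tested probe set of Med19).

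Med14, the scaffold, read 9.75, 9.33 and 9.51 in wild type and 9.64, 9.34 and 9.23 in the knockdown. The groups overlap, with a difference of −0.13 (interval −0.40 to 0.14). Its other 3 tested probe sets did not share a sign, at −0.022, −0.29 and 0.26.

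The tail, where many activators dock, had 2 of 5 differences above 0 and a median of −0.051. Med24 read 7.89, 7.70 and 7.49 in wild type and 7.61, 7.33 and 7.52 in the knockdown. It was lower in pairs 1 and 2 and nearly level in pair 3, with a difference of −0.21 (interval −0.51 to 0.09, limma adjusted p = 0.488). In MAS5 it was −0.39, which reached an unadjusted p under 0.05 (adjusted p = 0.445). Med23, a target of signalling through ELK1, differed by −0.10, but by 0.075 in MAS5. Med15, Med16 and Med25 differed by 0.042, 0.024 and −0.051 (0.088 at the other probe set of Med25).

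Counts of pairs gave no more than the background. The knockdown was higher in all 3 pairs for 5 members (Med8, Med15, Med17, Med21 and Med13l), or 15.6%, beside 17.3% of all probe sets. It was lower in all 3 pairs for another 5 (Med9, Med25, Med30, Cdk8 and Cdk19), beside 20.6%. In MAS5 0 members were called, beside 0 of all 17028 probe sets. There, with the block, 2 of 32 members, Med6 and Med24, had an unadjusted p under 0.05 (6.25%, beside 10.6% of all probe sets). Without the block 1 member, Med24, did (3.12%, beside 6.47%). The sign of the MAS5 difference was that of GCRMA in 25 of 32 members (78.1%, beside 79.4%).

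The replicate number accounted for more of the spread of these genes than the group did. It took a median of 64.4% of a member's sum of squares over the 6 arrays (53.4% over all probe sets), against 12.7% for the group (13.9%), with 2 degrees of freedom for the number and 1 for the group. The spread between the means of the 3 numbers was wider than the knockdown difference in 30 of 32 members (93.8%, beside 81.5% of all probe sets), the exceptions being Cdk8 and Med13l. Number 1 was the highest or lowest of the 3 in 28 members (87.5%, beside 76.5%). In any gene 2 of the 3 numbers are the highest or lowest, so a large share is built in. A range over 3 means also tends to be wider than a difference of 2 means. Med18 and Med25 show the pattern most fully. Med25 read 7.33, 6.79 and 7.18 in wild type and 7.23, 6.75 and 7.16 in the knockdown, so that the number carried 98.1% of its spread. Med18 read 7.93, 8.15 and 8.19 in wild type and 7.93, 8.14 and 8.17 in the knockdown, and the number carried 99.6%.

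The balance of signs shifted from pair to pair. The knockdown was higher for 9 of 32 members in pair 1, for 15 in pair 2 and for 22 in pair 3, with median differences of −0.097, −0.0063 and 0.042. Over all 17028 probe sets tested, the knockdown was higher for 7228, 8440 and 8882 in pairs 1, 2 and 3. Their medians were −0.047, −0.0023 and 0.016, in the same order.

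**Figure D3:**
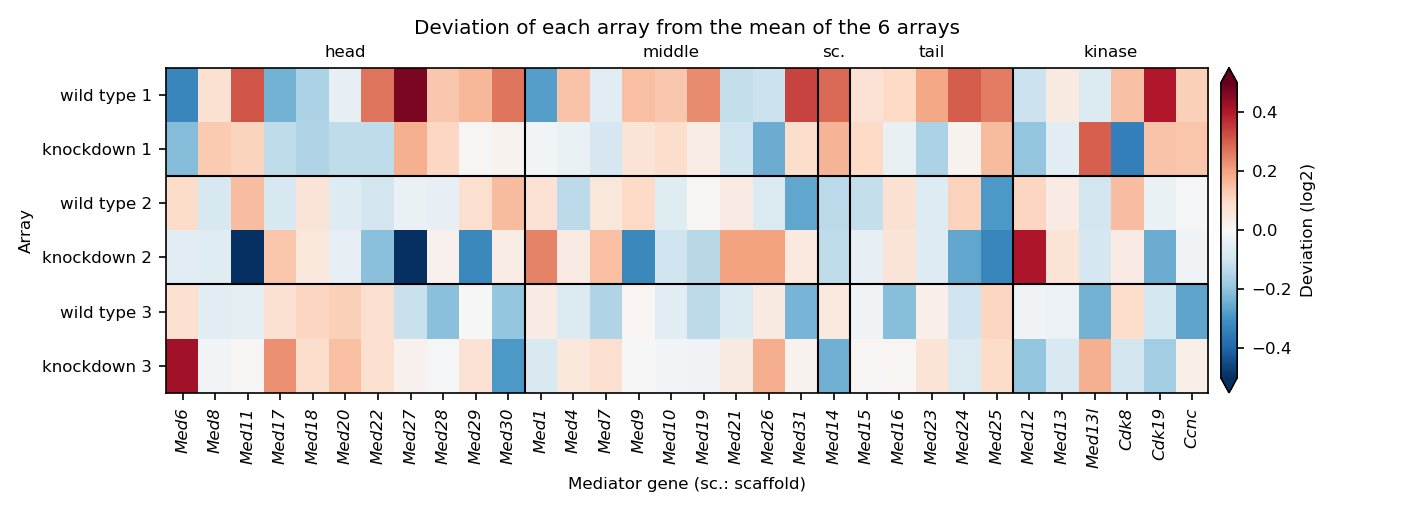
Deviation (colour, log2, limited to ±0.5) of each array (rows, the wild type and knockdown arrays of a number side by side) from a gene's mean over the 6 arrays, for the 32 tested Mediator genes (columns, by submodule). Colours follow the replicate number more than the group, as in Med25 and Med18, while Cdk8 and Med13l are the 2 genes whose knockdown difference exceeded the spread between numbers.

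Other transcription machinery was read from the same fit, as lists of genes that work beside Mediator. Polymerase II subunits had 6 of 11 differences above 0 and a median of 0.018, with 0 called. Polr2a, the largest subunit, read 10.64, 10.26 and 10.17 in wild type and 10.05, 9.70 and 9.73 in the knockdown. Every knockdown array was below every wild type array, with a difference of −0.53 (interval −0.77 to −0.29, limma adjusted p = 0.183), and −0.51 in MAS5. Polr2d and Polr2i differed by −0.18 and −0.16. General transcription factors, which place the polymerase on the promoter, had 8 of 17 above 0 and a median of −0.01, with 0 called. Gtf2f2 of TFIIF differed by −0.24, the TATA-binding protein gene Tbp by 0.21, and Gtf2a1 of TFIIA by 0.24 (0.026 to 0.37 at its other probe sets).

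TFIID subunits had 6 of 13 above 0 and a median of −0.0015, with 0 called. Taf5 and Taf4 differed by 0.32 and 0.28 (limma adjusted p = 0.291 and 0.317), with 0.27 at the other tested probe set of Taf4. Taf13 differed by −0.49 (limma adjusted p = 0.36), and by −0.27 in MAS5. It read 10.36, 9.76 and 10.76 within wild type alone. Genes of pause release and elongation had 12 of 23 above 0 and a median of 0.0073, with 0 called. Larp7 and Hexim1 differed by −0.49 and −0.31 (limma adjusted p = 0.279 and 0.36, and 0.916 and 0.867 without the block). At their other tested probe sets the differences were −0.51 and −0.31. Larp7 read 10.19, 8.75 and 9.59 within wild type alone. Cdk12 differed by −0.30 (−0.012 and 0.15 at its other probe sets). Cohesin and its loader, which act with Mediator at enhancers, had 7 of 10 above 0 and a median of 0.071, with 0 called. The loader genes Mau2 and Nipbl differed by 0.38 (0.16 to 0.19 at its other probe sets, adjusted p = 0.289 in limma) and 0.20 (−0.014 to 0.21 at its other probe sets), and the cohesin-associated gene Pds5a by 0.24. Unadjusted p-values under 0.05 were found for 1 of 11 polymerase genes, 0 of 17 general factors, 3 of 13 TFIID subunits, 2 of 23 elongation genes and 1 of 10 cohesin genes, beside the 13.7% of all probe sets.

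**Figure D4:**
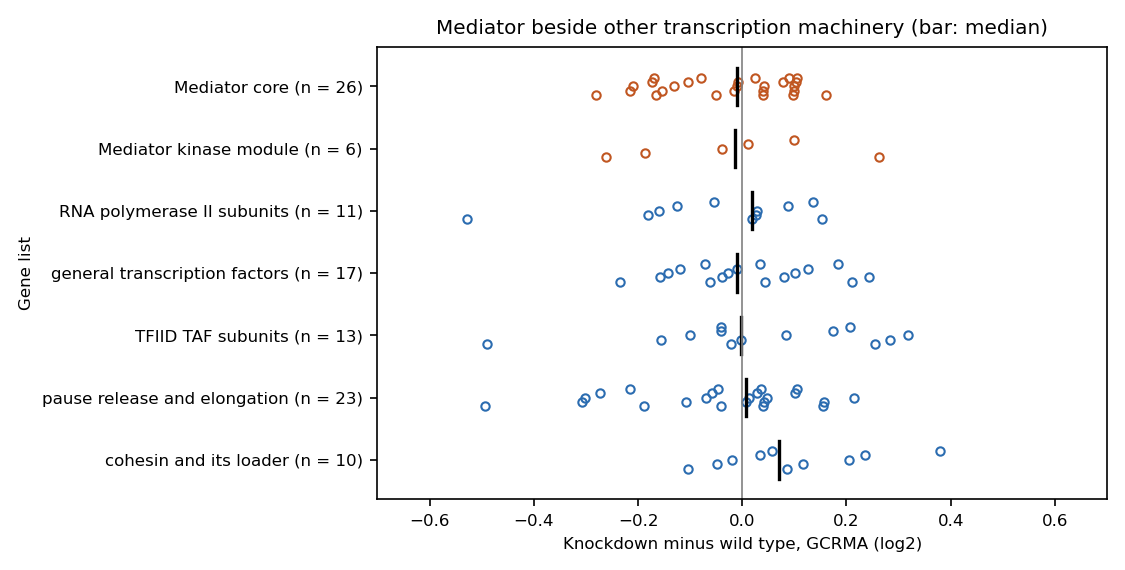
Knockdown minus wild type (GCRMA, log2, horizontal axis) for each tested gene (circles) of the Mediator core, its kinase module and 5 lists of other transcription machinery (vertical axis), with the list median as a bar. Medians lie between −0.014 and 0.071, and the Mediator genes span −0.28 to 0.26, with Polr2a at −0.53 as the lowest gene shown.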

How the data were processed

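RNA of 6 arrays was deposited in 2 summaries, per the labels. Linear intensity is the unit of the deposited MAS5 values, and log2 that of the deposited GCRMA values. Versions and settings of the software: not given in the sources used here. No count data exist for arrays, and the number of arrays limits the precision.

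The main fit used limma 3.58.1 in R 4.3.3 (lmFit, eBayes, Benjamini-Hochberg across all probe sets) on GCRMA values, with a block for the replicate number. The filter kept probe sets that exceeded log2 4 on 3 or more arrays, without the 64 control probe sets. MAS5 was tested as log2(value + 1). Gene names came from the platform annotation; all 33 members kept their symbol in RefSeq. The files name no genome build, so gene coordinates are not given beyond the RefSeq promoter windows. Pairing was described from the data. Once group means were taken off, same-numbered arrays correlated at 0.72, 0.57 and 0.37, and differently numbered arrays at −0.59 to 0.17. Taking off the mean of 3 arrays pushes the latter below 0 where the former are above it. The contrast between them is therefore built in to a degree. The pipeline was tested on simulated data.

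The members, the lists and the tests were chosen with earlier results of these data known. Named genes were every member, both Ehmt2 probe sets and up to 3 genes of each machinery list by lowest p. Alternatives were the unblocked fit, MAS5, other filters, array weights, a trended robust prior, median centring, the mean over probe sets, and leaving out arrays. MAS5 without the block was added after seeing the data.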

Additional observations from a re-analysis of the deposited data

How the results depend on the processing

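Under all 18 alternatives, 17 of them refits and the other the mean over a gene's tested probe sets, 0 Mediator genes were called by limma in any refit. The lowest adjusted p of a member was 0.302, with the trended robust prior, and 0.852 in the fit with no replicate block. The median difference of the members ranged from −0.034 to 0.024, within the spread of its 3 pair medians (SD 0.071). Single members kept their sign under every alternative in 14 of 32 genes, Cdk8, Cdk19, Med13l, Med11, Med17 and Med24 among them, and 49 of 576 values had the opposite sign. Leaving the block out turned no member's sign, since it leaves the differences as they are. The median of all probe sets ranged from −0.025 to 0.014 across the refits.

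The number of probe sets called, 2 in the blocked fit, was 1 with no replicate block, 4 with array weights, 6 with the trended robust prior, 8 with the filter at log2 6, 0 with no filter on dim probe sets, 0 in MAS5 with the block and 0 in MAS5 without it. When arrays were left out it ranged from 0 to 1. The brighter Ehmt2 probe set differed by −2.46 in MAS5 (adjusted p = 0.295 with the block and 0.349 without), by −2.87 with no filter (adjusted p = 0.19) and by −2.87 with no replicate block (adjusted p = 0.0719), and did not pass there. Leaving out arrays gave −3.06 to −2.61. At 1426888_at the difference was −2.71 in MAS5 (adjusted p = 0.419 with the block, 0.743 without) and −2.86 with no filter (adjusted p = 0.19), and leaving out arrays gave −3.01 to −2.70. In the blocked fit the call of 1460692_at ended without any replicate number, and that of 1426888_at held only without replicate 3 (adjusted p = 0.0444). Leaving out a number removes a pair and tests fewer arrays; other causes were not tested. For the Mediator genes the intervals of the main fit all include 0 at the representative probe sets. They give the differences compatible with 3 arrays per group in that fit. Probe sets at the floor, such as those of Med12l, give no ratio.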
